A study of Mus musculus with 4 samples.

Results

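Damage to the kidney tubule leaves a recognisable mark on its RNA. Injured epithelial cells switch on genes that are nearly silent in a resting tubule, among them Havcr1 (kidney injury molecule 1) and Lcn2 (neutrophil gelatinase-associated lipocalin), which are also measured in urine to detect acute kidney injury. The set examined here held 10 genes that are known to rise in injured tubule epithelium: Havcr1, Lcn2, Clu, Spp1, Vcam1, Krt20, Sox9, Cd44, Gdf15 and Il18. Every array probe that carried 1 of these gene names was taken, which gave 17 of the 41174 probes of the array.

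The genes were read in kidney RNA of mice with the Th3 form of beta-thalassemia and of control mice. In Th3 mice both adult beta-globin genes, beta-major and beta-minor, are deleted. The labels name the strains only as Th3 and control, and do not state age, sex, genetic background or whether 1 or both chromosomes carry the deletion. The design lists 4 mutant and 4 control samples, and 1 of each shared a two-colour array, in which a probe reports the red (Cy5) and the green (Cy3) sample side by side. Th3 RNA was red on arrays 1 and 2 but green on arrays 3 and 4, so any difference between these pairs of arrays holds a dye effect and a difference between kidneys that cannot be told apart. No label says that the samples are from separate animals, so the p-values measure only the spread between these samples, which may be technical.

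Depending on the array and the channel, 61.8% to 72.2% of the probes exceeded background clearly, and 0 spots were saturated. Only 4 arrays limit the precision of each value. The deleted gene checked the labels: the 4 probes named Hbb-b1 stood at 8.04% to 14.6% of control. All 8 proximal tubule markers and all 6 loop and distal tubule markers gave signal above background. In whole tissue, fewer cells of a type and less RNA per cell cannot be told apart.

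Clu, Vcam1, Cd44 and Spp1 were lower in Th3 kidney, Lcn2 and Gdf15 were higher, and no probe of Havcr1, Krt20, Sox9 or Il18 passed the test. Values are log2 ratios of Th3 over control, where 1 is a doubling and -1 leaves 50% of control; ± is the SD over the 4 arrays. The test was limma's, with a Th3 term and a term for the pair of arrays, and adjusted p-values over all 26434 probes that stood clear of background in every sample of a group were called under 0.05. Of the 17 probes, 14 were above background in this sense and reached all 10 genes, so only 3 could not be tested. In the test 7 of the 14 passed, beside 18.2% of all tested probes: 2 as higher, beside 9.27%, and 5 as lower, beside 8.92%. Th3 and control samples did not overlap for 3 of the 14, those of Lcn2, Clu and 1 of Vcam1, beside 19.7% of all tested probes. The ratio was above 0 on 4 of 4 arrays for 1 probe (19.5% of all) and below 0 on 4 of 4 for 3 probes (16.7% of all). Because of the pair term, these p-values measure the spread within a pair of arrays and not the spread between the pairs, which bears on most calls. With the pair of arrays as random block, which counts the spread between pairs, Clu and Vcam1 probe A_51_P210956 passed as lower, and 0 of the 14 passed as higher in limma (2 at an unadjusted p under 0.05).

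The tested probes of Havcr1 differed in direction and those of Vcam1 in whether they passed, while those of Cd44 were both called lower. Vcam1, Cd44 and Sox9 each also had a probe that was not above background. The first 30 bases of each 60-base probe are shown for Havcr1, Vcam1 and Cd44, as the array files give them and all in lower case. No run longer than 6 bases was shared between probes of the same gene, so their sequences differ. Whether each lies in the transcript was not checked, and Vcam1 probe A_52_P462332 lists no RefSeq transcript.
Havcr1 probe A_51_P371745: agctacaggaagacccacgactatttcaac
Havcr1 probe A_51_P371740: aggtacatacttatgaaaaggaagtcagca
Vcam1 probe A_51_P210956: tatatttttataggcaaatggtaaagaggt
Vcam1 probe A_52_P520495: aaccaagagtttggaagtaacctttactcc
Vcam1 probe A_52_P462332: ggggaacaatgaatcaagatactagtgatt
Cd44 probe A_52_P229536: cactgggatcttatcatcagataagcaggt
Cd44 probe A_52_P523459: gccaattgcttaggtatgtacaatgagttt
Cd44 probe A_51_P407053: tcatagtacaacccttcagcctactgcagc

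Havcr1 encodes a surface receptor that lets injured proximal tubule cells take up dead neighbours. Its probe A_51_P371745 (mouse build mm8, chr11:46599598-46599657, plus strand) had log2 ratios of 0.71 and 0.50 on arrays 1 and 2, and of 0.35 and -0.23 on arrays 3 and 4. The normalised level, on a log2 scale that serves to compare samples for 1 probe only, was 8.08, 8.32, 8.25 and 7.99 in the Th3 samples and 7.37, 7.82, 7.90 and 8.22 in the controls, in array order. The groups overlapped, since the control of array 4 was as high as the Th3 samples. The fitted difference of 0.33 ± 0.40 (95% interval 0.09 to 0.57, n = 4) did not pass (adjusted p = 0.0662). It was higher on 3 of 4 arrays and passed without array 4 (log2 0.48, adjusted p = 0.0109). It also passed on arrays 1 and 2 alone (0.0187), with the authors' deposited log2 ratios (0.0259), with no background correction (0.0387) and with separate channels (0.0450). These are limma fits, and in the authors' own unnamed test the adjusted p of this probe was 0.146.

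Lists of related genes are given by counts, beside 10.3% of 17628 genes that passed as higher and 10.2% as lower, and some genes stand in more than 1 list. The other Havcr1 probe, A_51_P371740, spans an exon junction between 46617168 and 46621955 of chromosome 11 and was dimmer. Its ratios were -0.20, 0.00, 0.02 and -0.40, with a fitted log2 ratio of -0.14 ± 0.20 (adjusted p = 0.268). Each Havcr1 probe lists 1 RefSeq transcript, and whether it is the same one was not compared. Among 5 tested genes related to Havcr1 and Lcn2 (TIM family members, and receptors that take up lipocalin 2), 1 was higher and 0 were lower, and the same 1 had an unadjusted p under 0.05. That gene, named after its values were seen, was Timd2, a TIM family member close to Havcr1. Its ratios of 0.89, 0.69, 0.40 and -0.04 gave 0.48 ± 0.40 (adjusted p = 0.0133), and whether either probe also reads the other gene's RNA was not tested.

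Lcn2 encodes lipocalin 2, a small secreted protein that binds bacterial iron carriers and is made by injured distal nephron and by neutrophils. The probe spans an exon junction on the minus strand of chromosome 2, between 32207526 and 32207770. Its level was 8.49, 7.34, 7.37 and 7.69 in the Th3 samples and 7.04, 7.07, 6.88 and 6.93 in the controls. The groups did not overlap, and the Th3 sample of array 1 stood well above the rest. The ratios of 1.45, 0.27, 0.48 and 0.76 gave a fitted 0.74 ± 0.51 (95% interval 0.31 to 1.17, higher on 4 of 4 arrays), a 1.67-fold rise that passed (adjusted p = 0.0354).

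The size of the Lcn2 rise rested on array 1. Without it the log2 ratio was 0.45 (adjusted p = 0.0197), and without array 2 it was 1.04 (adjusted p = 0.000208). The call was lost without array 3 (adjusted p = 0.0597), without array 4 (0.0850) and with the pair of arrays as random block (0.0760), and over all settings that lost it the adjusted p was 0.0513 to 0.0951. Of 5 tested neutrophil markers, 2 passed as higher and 0 as lower, with 1 lower at an unadjusted p under 0.05. That 1 was Ltf, with ratios of -0.32, -0.10, -0.14 and -0.23 and a fitted -0.20 ± 0.10 (adjusted p = 0.0675 in limma). S100a8 (0.19 ± 0.19, adjusted p = 0.112) and Mpo (0.10 ± 0.14, adjusted p = 0.325) did not pass either. S100a9, a calcium-binding protein abundant in neutrophils, rose by 1.08 ± 0.60, and was the 1 of the 5 that passed with the pair of arrays as random block. Camp, the antimicrobial cathelicidin of their granules, had 0.25 ± 0.24; it was above background on 4 of 4 arrays in Th3 but on 2 of 4 in control, so it entered the test only through the group where it was high. The summed level of the 5 markers on the linear scale ran from 1155 to 1942 in Th3 and from 649 to 1684 in control, while Elane, a defining elastase, was never above background. Their part in the Lcn2 result was not tested.

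By distance over the 4 ratios among 13949 genes, the genes most like Lcn2 were Apoa2, an apolipoprotein (distance 0.18), Rgcc, a cell cycle regulator (0.30), and Maff, a small bZIP factor (0.33). Apoa2 had ratios of 1.33, 0.19, 0.48 and 0.66, which follow the Lcn2 values array by array.

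Gdf15 encodes a stress-induced hormone that acts on the brainstem to reduce feeding and that is also made by stressed erythroid cells. Its probe lies on chromosome 8 of mm8 at 73558561 to 73558620, minus strand. The level was 11.31, 11.42, 11.42 and 11.74 in Th3 samples and 10.78, 11.06, 11.42 and 11.45 in controls, so the groups overlapped. Ratios of 0.53 and 0.36 on arrays 1 and 2 and of -0.01 and 0.29 on arrays 3 and 4 gave 0.29 ± 0.22 (n = 4), 1.23-fold, which passed by a small margin (adjusted p = 0.0331). Leaving out array 1 (adjusted p = 0.154), array 2 (0.0565) or array 4 (0.0638) ended the call. So did the fit without the pair term (0.0912), the pair as random block (0.120), separate channels (0.0656), Agilent's processed signals (0.0756) and arrays 3 and 4 alone (0.472).

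Among 10 tested partners of Gdf15, all stress response and p53 genes around it, 2 rose and 1 fell. No component of its receptor was tested, and Ret, which is 1 of these, was never above background. Trib3, a pseudokinase of the integrated stress response, rose by 0.30 ± 0.15 and Sesn2, a stress-induced inhibitor of growth signalling, by 0.26 ± 0.25. Atf3, an immediate stress transcription factor that is induced in injured tubules, fell by 0.33 ± 0.29 on the log2 scale (adjusted p = 0.0105). Atf4 and Ddit3 did not pass, with log2 ratios of 0.01 and -0.17.

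Clu, clusterin, is a secreted chaperone of misfolded proteins that injured tubules make in quantity. It showed the largest difference of the 10 genes, but Lcn2 was further from 0 than Clu in 4 of the alternative settings: Agilent's processed signals (1.44 against -1.03), the authors' deposited ratios (1.09 against -1.02), arrays 1 and 2 alone (0.86 against -0.80) and, by a small margin, without array 2. Its level was 12.43, 12.29, 12.25 and 12.16 in Th3 and 13.28, 13.04, 13.45 and 13.40 in control. All 4 Th3 samples lay below every control, and the samples within each group were close. Ratios of -0.85, -0.75, -1.20 and -1.24 gave a fitted fall of 1.01 ± 0.25 on the log2 scale (lower on 4 of 4 arrays), so that Clu stood at 49.6% of control (adjusted p = 0.00058). The probe lies at chr14:64935424-64935483, plus strand, and lists 2 RefSeq transcripts.

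Clu kept its call in all 20 alternative settings (log2 from -1.22 to -0.80, adjusted p from 3.13e-05 to 0.00856). In the authors' deposited table Clu had a signed fold of -2.03 and an adjusted p of 0.00221. Of the other probes called here, Lcn2 (0.00988) and Vcam1 probe A_51_P210956 (0.0157) were under 0.05 in that unnamed test. Gdf15 (0.117), Cd44 probe A_52_P229536 (0.0584) and, at the lowest of their 10 spots, Cd44 probe A_52_P523459 (0.0877) and Spp1 (0.222) were not. Of 5 tested partners of clusterin, which were receptors, Apoe and the heat-shock factor Hsf1, 2 rose and 0 fell. The 1 lower at an unadjusted p under 0.05 was Hsf1. Apoe, the lipoprotein that shares receptors with clusterin, rose by 0.80 ± 0.52 (adjusted p = 0.00247), and Vldlr, the very low density lipoprotein receptor, by 0.42 ± 0.32 (adjusted p = 0.0266). The genes nearest to Clu over the 4 ratios were Itgax, the CD11c integrin of dendritic cells (distance 0.27), Prnd, a relative of the prion protein (0.30), and Gas6, a ligand of TAM receptor kinases (0.34). Itgax itself is in the macrophage and dendritic list given below.

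**Figure D1:**
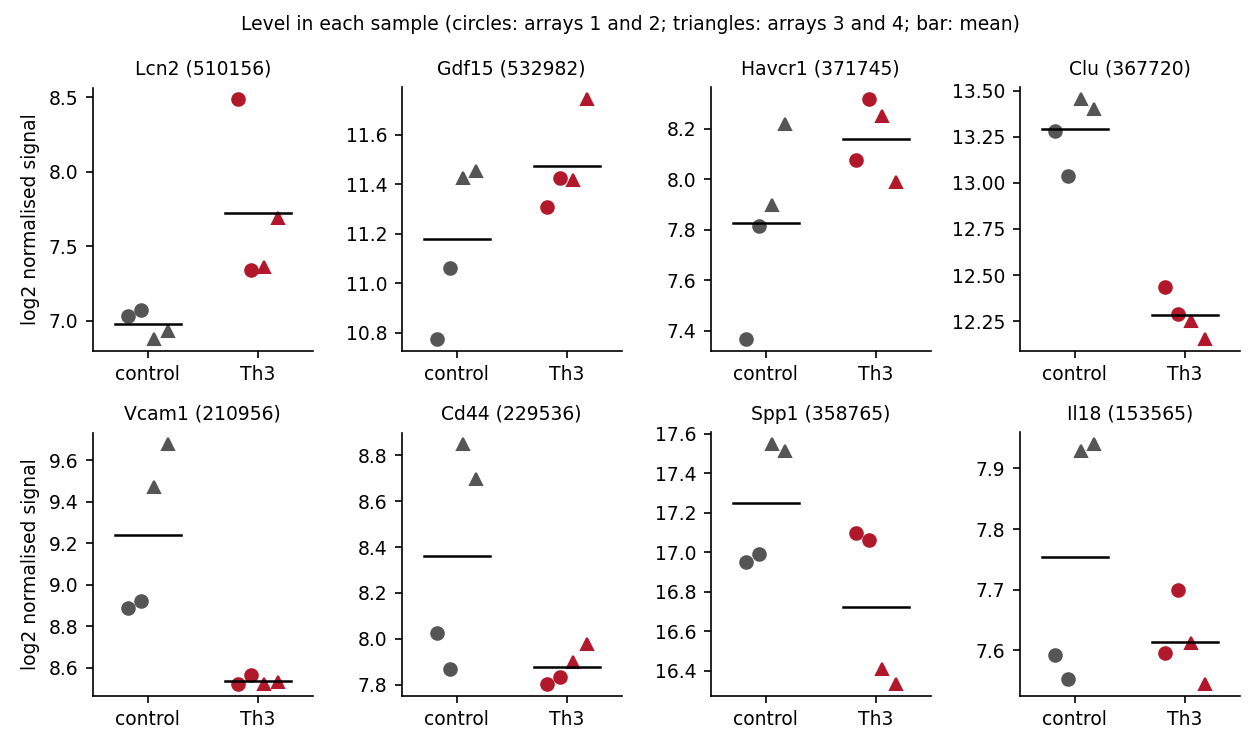
Level of 8 probes in each sample, on the vertical axis as log2 normalised signal. Grey points are control samples and red points Th3 samples, circles mark arrays 1 and 2, triangles arrays 3 and 4, and the bar is the mean of 4 samples; axes are scaled per panel and do not start at 0. In every panel but that of Lcn2 the control triangles stand above the control circles, from 16.95 and 16.99 to 17.55 and 17.51 for Spp1.

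Vcam1 encodes an adhesion molecule of activated endothelium that also appears on injured proximal tubule cells. Probe A_51_P210956 (chr3:116102302-116102361, minus strand) read 8.52, 8.57, 8.52 and 8.53 in the Th3 samples and 8.89, 8.92, 9.47 and 9.68 in the controls. The Th3 samples were nearly equal, whereas the controls of arrays 3 and 4 stood above those of arrays 1 and 2. The groups did not overlap. The fitted ratio was -0.70 ± 0.40 (adjusted p = 0.00193), 61.4% of control, with -0.36 on arrays 1 and 2 together and -1.05 on arrays 3 and 4. It was called in each of the 20 alternatives, with a highest adjusted p of 0.0390.

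A dimmer Vcam1 probe, A_52_P520495 (116118039 to 116118098), lists 1 RefSeq transcript as A_51_P210956 does, yet did not pass. Its ratios were 0.17, 0.05, -0.22 and -0.53, a fitted -0.13 ± 0.31 (95% interval -0.30 to 0.03, adjusted p = 0.224). A probe between these positions, A_52_P462332 (116109058 to 116109117), lists no RefSeq transcript, was not above background on any array and had ratios of -0.01, 0.00, 0.11 and 0.08. Of 11 tested partners of Vcam1, its integrin receptor, other adhesion molecules and the TNF and NF-kappaB genes that drive it, 1 rose, 0 fell and 0 more reached an unadjusted p under 0.05. The 1 that rose was Nfkbia, the NF-kappaB inhibitor, by 0.24 ± 0.11 (adjusted p = 0.0242). Icam1, the adhesion molecule most often read beside Vcam1, did not pass (log2 -0.12, adjusted p = 0.234).

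Spp1, osteopontin, is a secreted phosphoprotein of tubules and macrophages that binds integrins and CD44, and Cd44 is the hyaluronan receptor on the other side of that contact. The single Spp1 probe (chr5:104681071-104681130, plus strand) was printed 10 times on each array. Its level was 17.10, 17.06, 16.41 and 16.33 in Th3 and 16.95, 16.99, 17.55 and 17.51 in control. On arrays 1 and 2 the ratio was slightly above 0 (0.14 and 0.07), and on arrays 3 and 4 it was far below (-1.14 and -1.18). The fit gave -0.53 ± 0.73 (adjusted p = 0.00283), but without the pair term the call was lost (adjusted p = 0.225), as with pairs as a random block (0.245). The 2 pairs of arrays thus disagreed about Spp1, and on arrays 1 and 2 alone it did not pass (log2 0.11, adjusted p = 0.353).

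The difference between the pairs was itself 1.27 on the log2 scale and passed the test of the pair term (adjusted p = 0.0425), which called 14 of the 26434 probes (0.053%). Spp1 was the only member probe called. It was not called there with Agilent's processed signals, where 12 member probes had an unadjusted p under 0.05 but 0 passed. Spp1 was very bright: all 80 spot readings (10 spots, 4 arrays, 2 channels) came from the scanner's low-gain pass, and 0 were saturated. On each array 1 of the 10 spots was left out as an outlier, and the SD among the other 9 was 0.04 to 0.07.

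Cd44 had 3 probes, all on the minus strand of chromosome 2. Probe A_52_P229536 (102613589 to 102613648) read 7.80, 7.83, 7.90 and 7.98 in Th3 and 8.02, 7.87, 8.85 and 8.70 in control. The Th3 samples lay close together and the controls of arrays 3 and 4 stood apart from the rest. Ratios of -0.22, -0.04, -0.95 and -0.72 gave -0.48 ± 0.42 (adjusted p = 0.00717), lower on 4 of 4 arrays. Probe A_52_P523459 (102612349 to 102612408) was printed 10 times and had 0.01, -0.03, -0.61 and -0.77, a fitted -0.35 ± 0.40 (adjusted p = 0.0107). Both lost the call without the pair term (adjusted p = 0.0943 and 0.171), with pairs as a random block (0.110 and 0.193), and on arrays 1 and 2 alone (0.330 and 0.954).

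The remaining Cd44 probe, A_51_P407053 (102635102 to 102635161), lists 2 RefSeq transcripts where the others list 3. It was not above background on any array. Among 12 tested partners of Spp1 and Cd44, which were integrins, hyaluronan enzymes and the proteins that tie CD44 to the cytoskeleton, 1 rose and 1 fell. Ezr, ezrin, rose by 0.23 ± 0.07 (adjusted p = 0.0352), and Itga9, an integrin chain that binds osteopontin, fell by 0.24 ± 0.11 (adjusted p = 0.0337).

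Krt20 is a keratin of the urothelium and gut that injured tubule cells also make. Its probe (chr11:99244552-99244611, minus strand) read 8.24, 7.88, 7.80 and 8.21 in Th3 and 7.52, 7.51, 7.94 and 8.53 in control. The groups overlapped widely. The ratio was above 0 on arrays 1 and 2 (0.72 and 0.37) and below it on arrays 3 and 4 (-0.14 and -0.32), a fitted 0.16 ± 0.47 (95% interval -0.02 to 0.33, adjusted p = 0.186). It passed as higher on arrays 1 and 2 alone (adjusted p = 0.0336), with no background correction (0.0422), with Agilent's processed signals (0.0392) and with the authors' deposited log2 ratios (0.0267). These are limma fits, and in the authors' own unnamed test the adjusted p of Krt20 was 0.439.

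Of 5 other keratins of simple epithelia, 0 rose and 0 fell in the limma test, and 0 had an unadjusted p under 0.05. Krt19 ran with Krt20 across the arrays (0.85, 0.26, -0.23 and -0.56) and Krt18 did so at smaller size (0.55, 0.22, -0.05 and -0.29), whereas Krt8, the partner of Krt18, kept ratios of -0.07 to 0.01. These 3 were singled out after their values were seen. Urothelial markers moved along with Krt20: all 9 tested had a higher ratio on arrays 1 and 2 (median 0.33) than on arrays 3 and 4 (median -0.18), although 0 of 9 passed in the limma test, or at an unadjusted p under 0.05. Their summed linear level ran from 1558 to 3087 in Th3 and from 1459 to 2647 in control, and their part in the Krt20 result was not tested.

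Sox9, a transcription factor switched on in tubule cells that regenerate, did not pass by either tested probe. Probe A_52_P577484 (chr11:112601784-112601843, plus strand) had 0.19, -0.07, -0.43 and -0.43, a fitted -0.18 ± 0.30 (adjusted p = 0.0877). Probe A_52_P214630, further along the gene at 112603585 to 112603644 and printed 10 times, had 0.14, -0.05, -0.29 and -0.15, a fitted -0.09 ± 0.18 (adjusted p = 0.341). The first of these passed as lower on arrays 3 and 4 alone (adjusted p = 0.0229). The remaining Sox9 probe, A_51_P451606, spans a junction between 112599086 and 112599938 and was not above background on any array. Of 11 tested relatives and partners of Sox9, such as Notch and Pax genes, 1 rose and 0 fell, with 1 lower at an unadjusted p under 0.05. Lgr4, an R-spondin receptor, rose by 0.65 ± 0.25 (adjusted p = 0.00958).

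Il18 encodes a cytokine that tubule cells and macrophages release after cleavage by caspase 1. Its probe spans an exon junction between 50331595 and 50333723 of chromosome 9, plus strand, and was printed 10 times. The level was 7.60, 7.70, 7.61 and 7.54 in Th3 and 7.59, 7.55, 7.93 and 7.94 in control. Only the controls of arrays 3 and 4 stood out. The fitted ratio of -0.14 ± 0.26 (95% interval -0.27 to -0.01) did not pass (adjusted p = 0.125), while on arrays 3 and 4 alone it did (log2 -0.36, adjusted p = 0.0483).

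Of 9 tested genes of the Il18 pathway 4 fell and 0 rose, with 0 higher at an unadjusted p under 0.05, and the median of the 9 was -0.20 beside 0.00 over all tested probes. With the pair of arrays as random block 0 of 9 passed in limma (3 lower and 0 higher at an unadjusted p under 0.05). Il1b, the related cytokine interleukin 1 beta, fell by 0.37 ± 0.25 and Il18bp, the secreted Il18 inhibitor, by 0.33 ± 0.24. Casp1, the caspase that cleaves both cytokines, fell by 0.35 ± 0.46, although its ratios on arrays 1 and 2 were 0.14 and -0.06. Ifng, interferon gamma, fell by 0.23 ± 0.21. The pairs of arrays differed here as well: in limma 6 of the 9 passed as lower on arrays 3 and 4 alone, and 0 on arrays 1 and 2 alone, where 1 was lower at an unadjusted p under 0.05.

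The genes around the members were sensitive to the pair term as a whole. Of 65 such genes tested in the lists of partners, 14 passed with it and 1 with the pair of arrays as random block, Lgr4, although 15 then had an unadjusted p under 0.05.

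**Figure D2:**
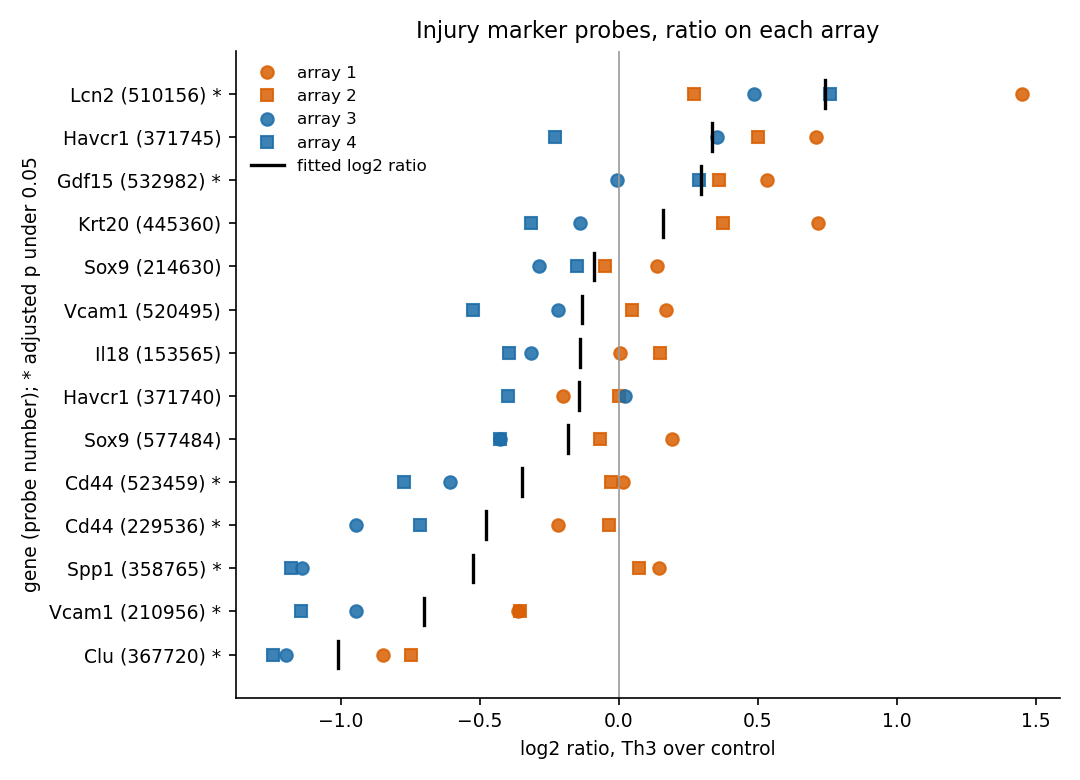
Log2 ratio of Th3 over control (horizontal axis) on each of the 4 arrays for the 14 tested probes, ordered by the fitted ratio, which is the black bar; a star marks an adjusted p under 0.05. Orange points are arrays 1 and 2 and blue points arrays 3 and 4; the orange mean lies to the right of the blue mean in each row, with the widest gap for Spp1 (1.27).

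Across the 10 genes the ratios were shifted between the pairs of arrays, by an amount that varied with the probe. Some kept their direction, such as Clu (-0.80 on arrays 1 and 2, -1.22 on arrays 3 and 4) and Lcn2 (0.86 and 0.62). All 14 tested probes had a higher mean ratio on arrays 1 and 2 than on arrays 3 and 4, as did 52.8% of all tested probes. The 14 had a median of 0.07 on the former pair and of -0.36 on the latter, beside 0.01 and 0.00 over all tested probes. On arrays 3 and 4, 10 of the 14 were lower on both arrays, against 34.5% of all tested probes. These probes share their samples and several share a gene, so the counts are a description.

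Levels were also compared between the pairs within each group. Control RNA was green on arrays 1 and 2 and red on arrays 3 and 4, and Th3 RNA the reverse. A shift of a group's level thus holds a dye effect, a difference between arrays and a difference between kidneys, which cannot be told apart. In 13 of the 14 probes the controls of arrays 3 and 4 were higher than those of arrays 1 and 2, by a median of 0.46 on the log2 scale, whereas 51% of all tested probes were, with a median of 0.00. Th3 samples were higher on arrays 3 and 4 in only 3 of the 14 (46.9% of all tested probes), with a median shift of -0.06. The control shift was 0.82 for Cd44 probe A_52_P229536, 0.72 for Krt20, 0.67 for Vcam1 probe A_51_P210956, 0.56 for Spp1 and 0.52 for Gdf15. Th3 shifts of the same probes were 0.12, -0.05, -0.02, -0.71 and 0.21. Spp1 had the largest Th3 shift of the 14, opposite to its controls, and Clu moved likewise at smaller size (-0.16 in Th3, 0.27 in control). Lcn2 was the 1 exception among the controls (shift -0.15), and its Th3 shift of -0.38 was the next largest after that of Spp1.

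For the other probes printed 10 times, of which 7 to 10 spots were used on an array, the SD among spots was 0.03 to 0.07 for Cd44, 0.03 to 0.06 for Il18 and 0.03 to 0.10 for Sox9. Spots of an array share the same RNA, labelling and dye, so this spread covers the printing and reading of spots only and not the error of the samples.

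**Figure D3:**
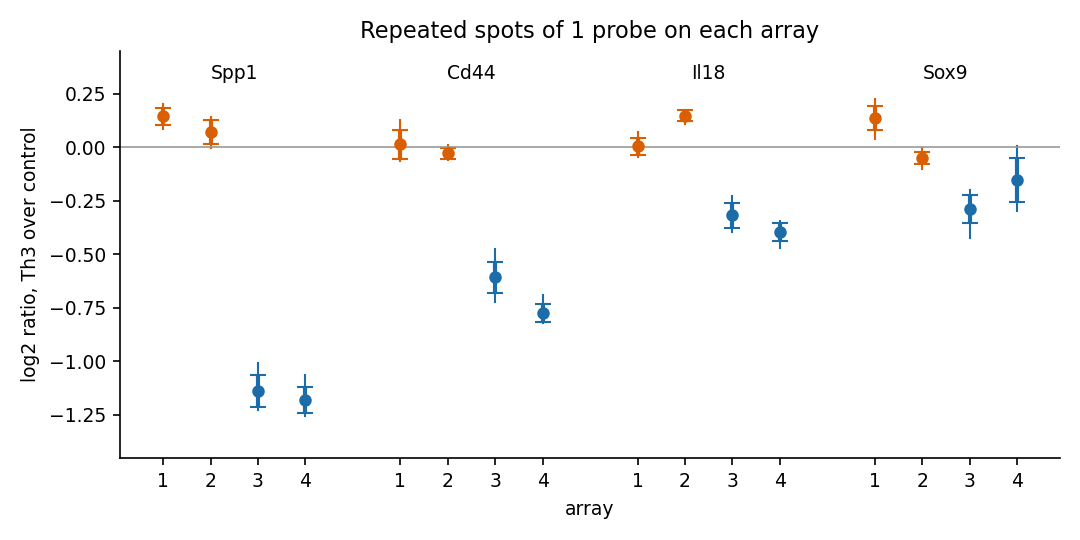
Log2 ratio of Th3 over control (vertical axis) for the 4 probes printed 10 times, on each array (horizontal axis). Points are means over the 7 to 10 spots used, capped bars are 1 SD over spots and thin lines run from the lowest to the highest spot, with arrays 1 and 2 in orange and arrays 3 and 4 in blue; for Spp1 the means are 0.14, 0.07, -1.14 and -1.18.

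Macrophage, dendritic and lymphocyte markers also had lower ratios on arrays 3 and 4 than on arrays 1 and 2, whereas 0 of the 5 neutrophil markers did (medians 0.29 and 0.06). Of 9 tested macrophage and dendritic cell markers 7 fell and 0 rose, with 0 higher at an unadjusted p under 0.05, with a median of 0.11 on arrays 1 and 2 that dropped to -1.16 on arrays 3 and 4. Cd74, the invariant chain of antigen presentation, fell by 0.94 ± 0.42 and Itgax by 0.99 ± 0.29. The summed linear level of these 9 markers ran from 17447 to 44036 in control and from 14071 to 24905 in Th3. The control mean rose from 19389 on the former pair to 41875 on the latter, while the Th3 means were 20810 and 15718. With the pair of arrays as random block, Cd74 and Itgax were the 2 that passed as lower, as on arrays 1 and 2 alone, and on arrays 3 and 4 alone 9 of 9 did. Itgam was the 1 marker of the list that failed the background filter.

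Lymphocyte markers did likewise, with 5 of 8 tested markers lower and 0 higher, a median of -0.12 on arrays 1 and 2 and of -0.72 on arrays 3 and 4, and 0 higher at an unadjusted p under 0.05. Ighm, the heavy chain of immunoglobulin M, fell by 1.11 ± 0.61. With the pair as random block Ighm and Ptprc, the pan-leukocyte antigen CD45, were the 2 that passed. Their summed level ran from 2142 to 2767 in Th3 and from 2999 to 5594 in control, and Cd79a, a defining B cell gene, was never above background. The part of immune cells in the results for Spp1, Cd44, Vcam1, Clu and Il18 was not tested.

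Outside the 10 genes, 45 other genes that are known to rise in injured tubules were tested. Of these 3 rose and 6 fell, with a median of -0.03, and 41 of the 45 had a higher ratio on arrays 1 and 2 (median 0.16) than on arrays 3 and 4 (median -0.24). Those that rose were Myc, the growth transcription factor (0.75 ± 0.39, adjusted p = 0.0145), Cp, the plasma ferroxidase ceruloplasmin (0.74 ± 0.41, adjusted p = 0.00141), and Ccn2, a secreted profibrotic factor (0.63 ± 0.25, adjusted p = 0.0102). Csf1, a macrophage growth factor made by injured tubules, fell by 0.39 ± 0.28, and Itgb6, an epithelial integrin chain, by 0.33 ± 0.28. Myc, Cp and Ccn2 passed as higher with the pair of arrays as random block too, whereas 0 then passed as lower in limma (9 at an unadjusted p under 0.05). Areg, Cxcl2 and Il6 were never above background.

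Genes that are lost when tubules are injured give the other side of the picture. Of 19 tested, 8 fell and 1 rose, with a median of -0.16. Slc22a6, the organic anion transporter of the proximal tubule, fell by 0.80 ± 0.11 (adjusted p = 0.00141), and Kl, the antiageing hormone Klotho, by 0.60 ± 0.12 (adjusted p = 0.0026). Slc34a1, the phosphate transporter, fell by 0.44 ± 0.26, and Egf, made by the distal nephron, by 0.37 ± 0.16. With the pair of arrays as random block 4 passed as lower: Slc22a6, Kl, Egf and Slc22a8, an organic anion transporter. The 1 that rose was G6pc, glucose 6-phosphatase (0.58 ± 0.56, adjusted p = 0.00572), with ratios of 0.30 and -0.07 on arrays 1 and 2 against 1.04 and 1.06 on arrays 3 and 4. These genes did not split by pair in 1 direction: 6 of 19 had the higher ratio on arrays 1 and 2, and the medians were -0.20 and -0.14.

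**Figure D4:**
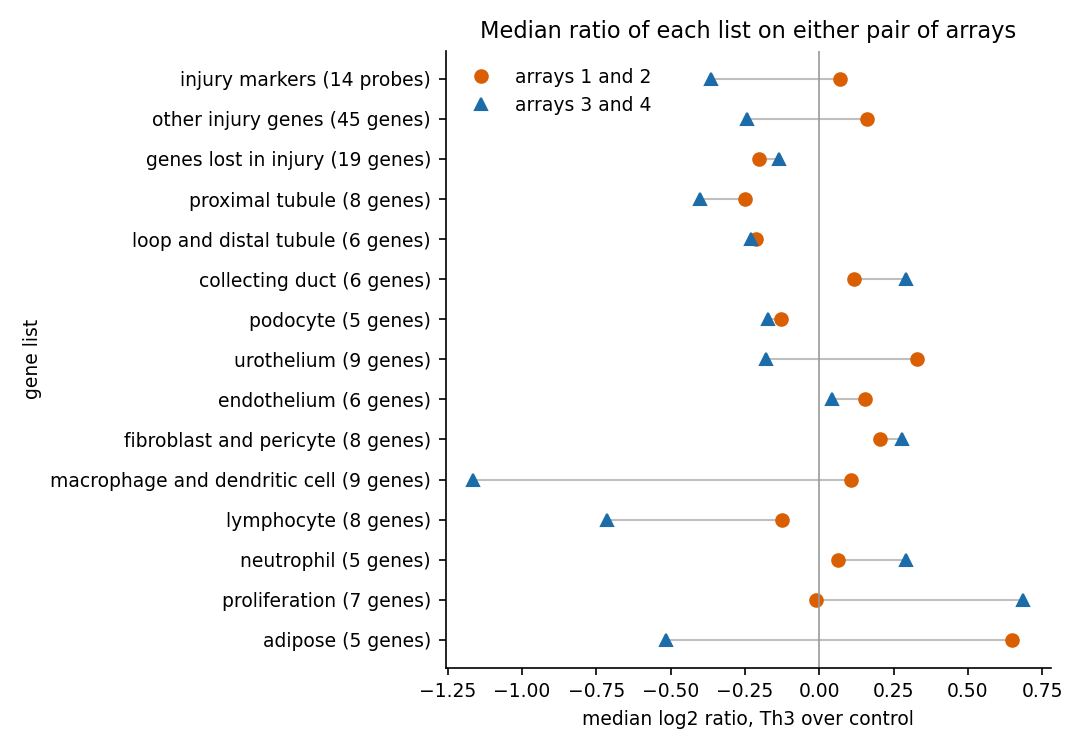
Median log2 ratio of Th3 over control (horizontal axis) of each gene list, with circles for arrays 1 and 2 and triangles for arrays 3 and 4, joined by a line; the number of tested probes or genes is beside each name. The injury markers go from 0.07 to -0.36, the macrophage and dendritic markers from 0.11 to -1.16, and the genes lost in injury from -0.20 to -0.14.

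Proximal tubule markers as a cell type list had 6 of 8 lower and 0 higher, with 0 higher at an unadjusted p under 0.05, and the summed level of the 8 ran from 254816 to 320988 in Th3 and from 336457 to 358001 in control, without overlap. Gatm, a creatine synthesis enzyme of this segment, fell by 0.83 ± 0.13; it and Slc22a6 were the 2 that passed with the random block. Proliferation genes had the opposite pair pattern, with 5 of 7 higher and 0 of 7 with a higher ratio on arrays 1 and 2. Ccnb2, a mitotic cyclin, rose by 0.83 ± 0.58. None of the 7 passed in limma with the random block (3 higher at an unadjusted p under 0.05). Adipose genes, which mark fat that a kidney sample can carry, differed between the pairs in the direction of the members: 5 of 5 had a higher ratio on arrays 1 and 2 (median 0.65) than on arrays 3 and 4 (median -0.52). Their summed control level had a mean of 40053 on the former pair and of 67337 on the latter, and in Th3 the means were 54939 and 46320. Of the 5, 1 rose and 2 fell. Adipoq rose by 1.00 ± 1.02 (adjusted p = 0.0480 in limma) and Cidea fell by 1.11 ± 0.95 on the log2 scale. Fabp4 (0.26 ± 0.62) and Plin1 (0.10 ± 0.97) did not pass. Ucp1, the uncoupling protein of brown fat, fell by 3.40 ± 0.93 and was the 1 that passed with the random block. The part of all these shifts in the members' values was not tested.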

How the data were processed

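Kidney RNA of 4 Th3 and 4 control samples was read on 4 Agilent arrays of design 014868, 1 of each sample per array, with groups and dyes taken from the labels. Mean spot and background intensities and flags are per the file headers of Agilent Feature Extraction 9.5.3.1, not normalized. The deposited log10 ratio of red over green is a processed value per the file headers. The authors deposited a table of log2 ratios, a signed fold (a score made by an unstated rule) and an adjusted p-value of an unnamed test, read as an alternative only. Positions are those of the array annotation on mm8. Genome sequence and annotation of that build were not used, so exon, intron or UTR are not given.

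Signals were processed in R 4.3.3 with limma 3.58.1 (with data.table in version 1.17.8): normexp (offset 50), loess (span 0.3, 4 iterations), control and outlier spots at weight 0, outlier spots (at most 186 on an array) then set to missing, and spots of a probe averaged. Levels are channel values after Aquantile scaling between arrays. A probe was tested if well above background in the Th3 or in the control channel on all 4 arrays, with values on at least 3. The fit (lmFit, eBayes; 2 residual and 4.37 prior degrees of freedom) had a Th3 and a pair term, adjusted by Benjamini-Hochberg. Only the fit was tested on simulated data, which were ratios per probe, and the steps before it were not.

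Lists were read at the brightest tested probe per gene, without the 10 members. Named from each list were up to 2 increases and 2 decreases among called genes whose ratios all shared a sign, or the smallest p; other names were added after values were seen. Members and lists were chosen with earlier results of these data known. Alternatives changed the offset, background correction, normalization, filter, outlier rule, model terms, weights or probe rule, took the authors' ratios, or left out arrays; separate channels were fitted with lmscFit. All sequences are from the array files.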

Additional observations from a re-analysis of the deposited data

Results flagged for a closer look

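The ratio of Spp1 differed between the pairs of arrays, by 1.27 on the log2 scale (0.11 on arrays 1 and 2 against -1.16 on arrays 3 and 4, adjusted p = 0.0425 for the pair term of the limma fit). The dye orientation and the kidneys differ between these pairs together and cannot be told apart. No sample stood apart by Dixon's criterion (critical value 0.829) in any of 42 groups of 4 values examined, which were the ratios, Th3 levels and control levels of the 14 tested probes.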

How the results depend on the processing

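Over 20 alternatives, 18 planned and 2 added after the data were seen (each pair of arrays alone; the list counts without the pair term were added then too), 237 of 276 probe results kept their direction and their side of the threshold; Clu and Vcam1 probe A_51_P210956 did so throughout. On arrays 1 and 2 alone the direction turned for Spp1 (0.11), Vcam1 probe A_52_P520495 (0.11), Il18 (0.076) and Sox9 probes A_52_P214630 (0.043) and A_52_P577484 (0.061), and on arrays 3 and 4 alone for Krt20 (-0.23); the 2-array fits have fewer samples. The count of member probes higher in Th3, 2 as reported, was 4 with no background correction and with the authors' ratios, 1 with no filter on dim probes, without the pair term, with array weights and on arrays 3 and 4 alone, and 0 in limma with pairs as a random block (2 at an unadjusted p under 0.05; correlation 0.14). It was 1 whichever array was left out, but the probe changed. That probe was Lcn2 without array 1 or array 2, Gdf15 without array 3, and Havcr1 probe A_51_P371745 without array 4. On arrays 1 and 2 alone the count was 3: Havcr1 probe A_51_P371745, Krt20 and Gdf15, but not Lcn2. The count lower, 5, was 2 without the pair term, with the random block and on arrays 1 and 2 alone, and 7 on arrays 3 and 4 alone. The count differing between pairs, 1, was 0 with Agilent's processed signals (12 at an unadjusted p under 0.05) and 11 with median centring, which called 17355 of all tested probes. All calls numbered 4810, against 2606 without the pair term, 1730 with the random block, 7748 with separate channels, 2245 without array 1, 2580 without array 2, 2197 on arrays 1 and 2 and 3083 on arrays 3 and 4. Median centring split them into 2279 higher and 1401 lower, against 2451 and 2359. The cause of these changes was not tested. The main test was on ratios within an array, which already set 1 Th3 against 1 control sample. The labels give a single series of replicate numbers, so no other pairing was possible. Signal over background limited 3 probes, 1 each of Vcam1, Sox9 and Cd44; with no filter their log2 ratios were 0.05, 0.00 and 0.02 and none of these 3 passed in that limma fit (adjusted p = 0.561 to 0.992).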
